A study of Mus musculus with 4 samples.

Results

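Glucocorticoid regeneration, receptor and target genes were followed in brown adipose tissue of Ebf2 KO and wild-type (WT) mice. The members were 9 genes picked by symbol, with the difference between the genotypes in these same libraries already known, and 8 of them were among the 12165 genes of the deposited RNA-seq table. Nr3c2, which encodes the mineralocorticoid receptor, was not among these genes, so only its promoter was searched and its expression was not analysed. The Ebf2 KO group and the WT group held 2 libraries each, from adult mice of a mixed strain that were 8 weeks old and fed chow at room temperature. Polyadenylated RNA was sequenced. Which part of Ebf2 was deleted and in which cells, and whether the libraries were from single or pooled animals, was not stated in the labels. The spread between replicates may therefore be partly technical.

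Glucocorticoids are adrenal steroids whose activity inside a cell depends on the cell's own enzymes. The enzyme 11beta-HSD1 (Hsd11b1), in the lumen of the endoplasmic reticulum, turns inert 11-dehydrocorticosterone back into corticosterone. It needs NADPH, which H6PD (H6pd) makes from glucose 6-phosphate in the same compartment. Corticosterone binds the glucocorticoid receptor (Nr3c1), which is held ready by HSP90 and its cochaperones, moves to the nucleus and switches genes on or off. In fat, glucocorticoids are known for promoting adipocyte differentiation and, in rodents, for lowering heat production by brown adipocytes.

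Expression was given as RPKM, reads scaled to the length of the gene and the total of the library, so levels can be set side by side between genes. The library totals, worked out from the RPKM values, were 176568920 and 162782640 reads in Ebf2 KO replicates 1 and 2 and 199678916 and 176574890 reads in WT replicates 1 and 2. A single read on 1 kb of gene thus added 0.00501 to 0.00614 RPKM. Ebf2 itself was at 0.391 and 0.352 RPKM in the Ebf2 KO libraries and at 2.97 and 2.63 RPKM in the WT libraries, so both libraries labelled Ebf2 KO held less of it. Of these totals, an estimated 58.0% and 60.6% of reads in Ebf2 KO replicates 1 and 2 lay in the listed genes. In WT replicates 1 and 2 it was 42.5% and 44.7%. RPKM is scaled to the total of all reads and does not correct for this difference. The middle gene of the table had a mean RPKM 1.57 times higher in Ebf2 KO than in WT. The median difference over all genes was 0.45 on the log2(RPKM + 1) scale. Differences of single genes are therefore also given relative to the median gene. Ebf2 KO replicate 2 stood apart in Xist, the RNA that silences an X chromosome in female cells, with 0.0353 RPKM against 5.49 RPKM in Ebf2 KO replicate 1 and 5.05 and 6.19 RPKM in the WT libraries. No sex is recorded in the labels.

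The members spread over both directions. Hsd11b1, H6pd, Nr3c1, Fkbp5 and Tsc22d3 were higher in both Ebf2 KO libraries than in both WT libraries, Sgk1 and Dusp1 were lower in both, and Zbtb16 overlapped. Over all 12165 genes, 65.4% lay above WT in this way and 9.3% lay below. Since the members were chosen with this difference known, their values are a description and carry no test, and nothing is read from their counts. Limma called 4 of the 8 members higher on log2(RPKM + 1), where it called 24.4% of all genes higher. After subtraction of each library's own median, here called centring, it called 2 higher and 2 lower, where it called 8.42% and 10.3% of all genes. By the authors' deposited table, members at an FDR under 0.05 were 2 higher and 2 lower, against 10.9% and 10.5% of all genes. The median log2 difference was 1.06 over the 8 members and 0.45 over all genes. After centring it was 0.53 over the members and -0.070 over all genes.

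**Figure D1:**
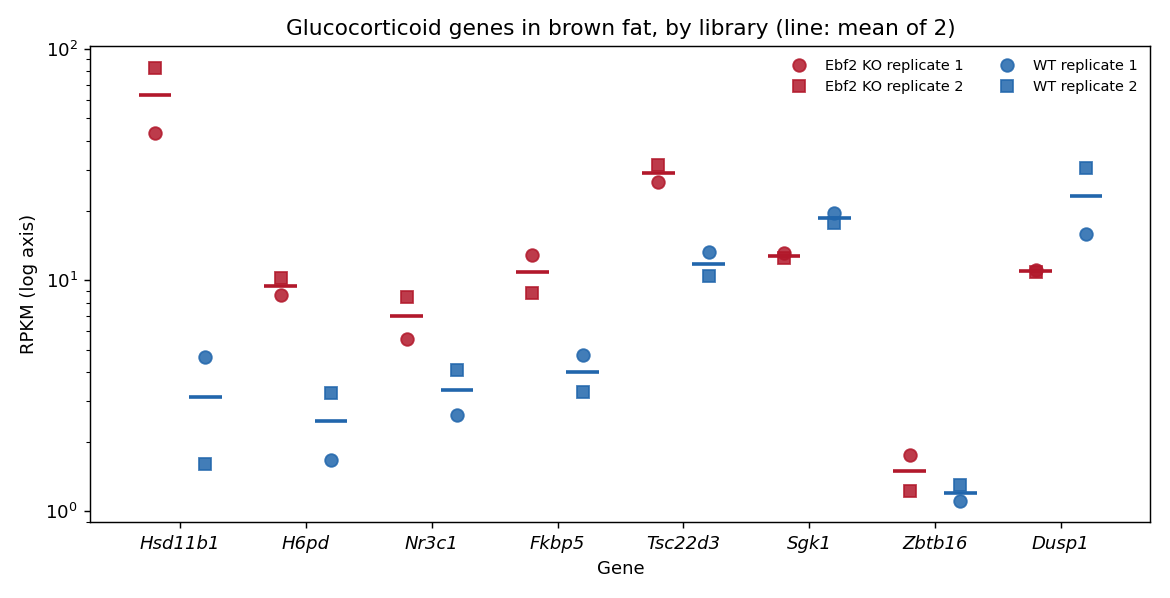
RPKM of the 8 members on a log axis in the Ebf2 KO (red, left) and WT (blue, right) libraries, with a line at the mean of the 2 libraries. The Hsd11b1 values of 43.5 and 83.0 RPKM in Ebf2 KO lie furthest from their WT values, while Sgk1 and Dusp1 lie lower in Ebf2 KO and Zbtb16 overlaps.

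Hsd11b1, the glucocorticoid-regenerating enzyme, was at 43.5 and 83.0 RPKM in the Ebf2 KO libraries and at 4.67 and 1.61 RPKM in the WT libraries. These values came from 11086 and 19524 reads in Ebf2 KO and from 1347 and 410 reads in WT. The lowest Ebf2 KO value was far above the highest WT value, although replicates within a genotype differed by 1.91 times in Ebf2 KO and 2.91 times in WT. The mean of 63.2 ± 28.0 RPKM in Ebf2 KO was 20.2 times that of 3.14 ± 2.16 RPKM in WT (SD, n = 2 each). Relative to the median gene it was 12.9 times higher. The log2 difference of 3.99 (SE 0.42) ranked 1 of 12165 genes from the top. Centring shifts every gene by the same amount and so leaves this rank as it is. In the authors' deposited table its log2 fold change of 3.57 ranked 12 from the top. Each of the libraries moved the size, with a log2 difference of 4.45 when Ebf2 KO replicate 1 was left out and 3.53 when Ebf2 KO replicate 2 was. Leaving out WT replicate 1 gave 4.55, and leaving out WT replicate 2 gave 3.43. In tissue RNA, a difference in the share of cells that express a gene and a difference in RNA per cell cannot be told apart.

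The promoter of Hsd11b1 is shown because no other member differed as much. It runs from 250 bases before to 50 bases after the start site annotated by RefSeq on GRCm38.p6, at chr1:193242311-193242610 on the minus strand. The mm9 build of the expression data differs, and the sequence is used only as sequence. The capitals mark CCAAT, the core of the CCAAT box, whose first base lay at position -72 from the start site. This pentamer is common, being found on either strand in 37.4% of the 32851 RefSeq promoters of the same length.
Hsd11b1: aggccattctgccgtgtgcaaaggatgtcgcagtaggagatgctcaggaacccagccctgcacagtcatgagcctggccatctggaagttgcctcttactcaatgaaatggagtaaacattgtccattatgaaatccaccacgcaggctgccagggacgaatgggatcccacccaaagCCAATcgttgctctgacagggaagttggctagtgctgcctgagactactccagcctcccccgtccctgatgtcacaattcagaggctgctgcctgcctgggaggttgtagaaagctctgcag

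The same promoters were searched for 3 longer motifs. These were the palindrome bound by the glucocorticoid receptor (AGAACA and TGTTCT with 3 bases between them), the palindrome bound by EBF factors (TCCC and GGGA with 2 bases between them) and the cyclic AMP response element TGACGTCA, each of which reads alike on both strands. They were found in 0.00913%, 0.904% and 1.79% of all promoters. Of the 9 members 7 had 1 or more promoters among the RefSeq sequences, all but Nr3c1 and Zbtb16, 14 promoters in all. The Hsd11b1 window held none of these 3 motifs, which says only that these letters are not in this window.

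H6pd, which supplies the NADPH for 11beta-HSD1, was at 8.64 and 10.2 RPKM in the Ebf2 KO libraries and at 1.67 and 3.26 RPKM in the WT libraries. Both Ebf2 KO libraries were above both WT libraries, and the WT libraries differed from each other by 1.95 times. The mean of 9.41 ± 1.09 RPKM in Ebf2 KO was 3.81 times that of 2.47 ± 1.12 RPKM in WT (SD, n = 2 each), and 2.43 times higher relative to the median gene. Its log2 difference was 1.62 (SE 0.30) on RPKM and 1.10 after centring, and the authors' deposited table gives 1.33.

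The enzyme and its cofactor supplier did not differ by the same factor. The ratio of Hsd11b1 to H6pd within a library does not depend on how libraries are scaled. It was 5.03 and 8.15 in the Ebf2 KO libraries and 2.79 and 0.493 in the WT libraries, so the Hsd11b1 level exceeded the H6pd level in 3 libraries and was below it in WT replicate 2. The ratio of H6pd to G6pdx, which encodes the cytosolic relative of H6PD, was 0.267 and 0.355 in the Ebf2 KO libraries and 0.117 and 0.253 in the WT libraries. These groups did not overlap, but Ebf2 KO replicate 1 lay only just above WT replicate 2.

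Nr3c1, the glucocorticoid receptor gene, was at 5.55 and 8.47 RPKM in the Ebf2 KO libraries and at 2.61 and 4.07 RPKM in the WT libraries. Both Ebf2 KO values were above both WT values. The mean of 7.01 ± 2.06 RPKM in Ebf2 KO was 2.10 times that of 3.34 ± 1.03 RPKM in WT (SD, n = 2 each), but only 1.34 times higher relative to the median gene. Its log2 difference was 0.88 (SE 0.30) on RPKM and 0.36 after centring. The authors' deposited table gives 0.44. Hsd11b1 therefore differed more than the receptor gene, with a Hsd11b1 to Nr3c1 ratio of 7.83 and 9.80 in the Ebf2 KO libraries and 1.79 and 0.395 in the WT libraries.

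Among the genes known to be switched on by the receptor, Fkbp5 and Tsc22d3 were higher in Ebf2 KO. Fkbp5 encodes FKBP51, an HSP90 cochaperone that lowers the receptor's affinity for hormone and so forms a negative feedback loop. It was at 12.9 and 8.83 RPKM in the Ebf2 KO libraries and at 4.76 and 3.27 RPKM in the WT libraries. The means were 10.8 ± 2.85 RPKM in Ebf2 KO and 4.02 ± 1.05 RPKM in WT (SD, n = 2 each), a ratio of 2.70, or 1.72 relative to the median gene. Tsc22d3 encodes GILZ, a leucine zipper protein that carries part of the anti-inflammatory action of glucocorticoids. It was at 26.6 and 31.6 RPKM in the Ebf2 KO libraries and at 13.2 and 10.4 RPKM in the WT libraries. The means were 29.1 ± 3.54 RPKM in Ebf2 KO and 11.8 ± 1.995 RPKM in WT (SD, n = 2 each), a ratio of 2.46, or 1.57 relative to the median gene. The log2 difference was 1.23 (SE 0.28) for Fkbp5 and 1.24 (SE 0.22) for Tsc22d3 on RPKM, and 0.71 for each once centred. The authors' deposited table gives 0.77 for Fkbp5 and 0.63 for Tsc22d3.

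Sgk1 and Dusp1, which the receptor also switches on, were lower in Ebf2 KO. Sgk1 encodes a kinase that acts on ion channels and transporters and responds to glucocorticoids, mineralocorticoids and serum. It was at 13.1 and 12.4 RPKM in the Ebf2 KO libraries and at 19.6 and 17.7 RPKM in the WT libraries. The replicates lay close together, differing by 1.05 times in Ebf2 KO and 1.10 times in WT, and the groups did not overlap. The mean of 12.7 ± 0.448 RPKM in Ebf2 KO stood against 18.6 ± 1.31 RPKM in WT (SD, n = 2 each), 1.46 times lower in Ebf2 KO, or 2.29 times lower relative to the median gene. Dusp1 encodes a phosphatase that turns off MAP kinases. It was at 11.1 and 10.9 RPKM in the Ebf2 KO libraries and at 15.8 and 30.6 RPKM in the WT libraries. The Ebf2 KO libraries agreed within 1.02 times while the WT libraries differed by 1.94 times. The mean of 10.97 ± 0.132 RPKM in Ebf2 KO was 2.12 times lower than that of 23.2 ± 10.5 RPKM in WT (SD, n = 2 each), or 3.32 times lower relative to the median gene. The log2 difference of Dusp1 was -0.95 (SE 0.31), -0.49 without WT replicate 2 and -1.40 without WT replicate 1. The strand setting of the counts is not given, and exons of Dusp1 overlap those of Ergic1 on the other strand in GENCODE M21. Ergic1 was at 25.7 and 31.2 RPKM in the Ebf2 KO libraries and at 18.8 and 23.6 RPKM in the WT libraries.

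The promoters of these 2 genes are shown because they hold the only matches to the receptor palindrome and to the cyclic AMP response element among the member promoters. Sgk1 has 6 RefSeq promoters, and the receptor palindrome, found in 3 of all 32851 promoters, stood in the window at chr10:21993640-21993939 on the plus strand of GRCm38.p6. In capitals is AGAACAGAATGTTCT, whose first base lay at position -189 from the start site. Another Sgk1 window held the EBF palindrome, as TCCCAAGGGA, at position -211 from its start site. The Dusp1 window lies at chr17:26508423-26508722 on the minus strand, and its capitals mark TGACGTCA, at position -143.
Sgk1: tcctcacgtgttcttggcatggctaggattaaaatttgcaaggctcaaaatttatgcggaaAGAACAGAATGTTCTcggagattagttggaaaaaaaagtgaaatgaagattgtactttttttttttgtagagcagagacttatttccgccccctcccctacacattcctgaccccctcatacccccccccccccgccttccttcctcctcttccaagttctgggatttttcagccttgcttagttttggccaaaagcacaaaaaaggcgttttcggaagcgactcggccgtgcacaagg
Dusp1: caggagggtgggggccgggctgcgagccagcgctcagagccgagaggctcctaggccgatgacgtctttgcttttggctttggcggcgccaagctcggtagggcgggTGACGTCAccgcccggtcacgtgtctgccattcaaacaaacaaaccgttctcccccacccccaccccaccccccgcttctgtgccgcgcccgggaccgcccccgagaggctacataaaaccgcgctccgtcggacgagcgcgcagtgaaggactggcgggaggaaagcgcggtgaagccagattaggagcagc
The palindrome of the receptor was in no other member window, including the other Sgk1 windows and those of Fkbp5, Tsc22d3 and Dusp1. Since only 3 of all 32851 promoters held it, its absence from a window sets no gene apart. A match is a description of the letters and not evidence of binding, and the receptor is known to act at distant enhancers and introns as well.

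Zbtb16 encodes PLZF, a zinc finger repressor that glucocorticoids induce in many tissues. It was at 1.76 and 1.22 RPKM in the Ebf2 KO libraries and at 1.11 and 1.30 RPKM in the WT libraries. The groups overlapped, since WT replicate 2 exceeded Ebf2 KO replicate 2. The mean was 1.49 ± 0.381 RPKM in Ebf2 KO and 1.21 ± 0.131 RPKM in WT (SD, n = 2 each), a ratio of 1.24, but 1.27 times lower relative to the median gene. Its sign turned with the scaling, from a log2 difference of 0.17 on RPKM to -0.36 after centring and -0.31 in the authors' deposited table. Zbtb16 was the only member whose sign changed in this way.

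**Figure D2:**
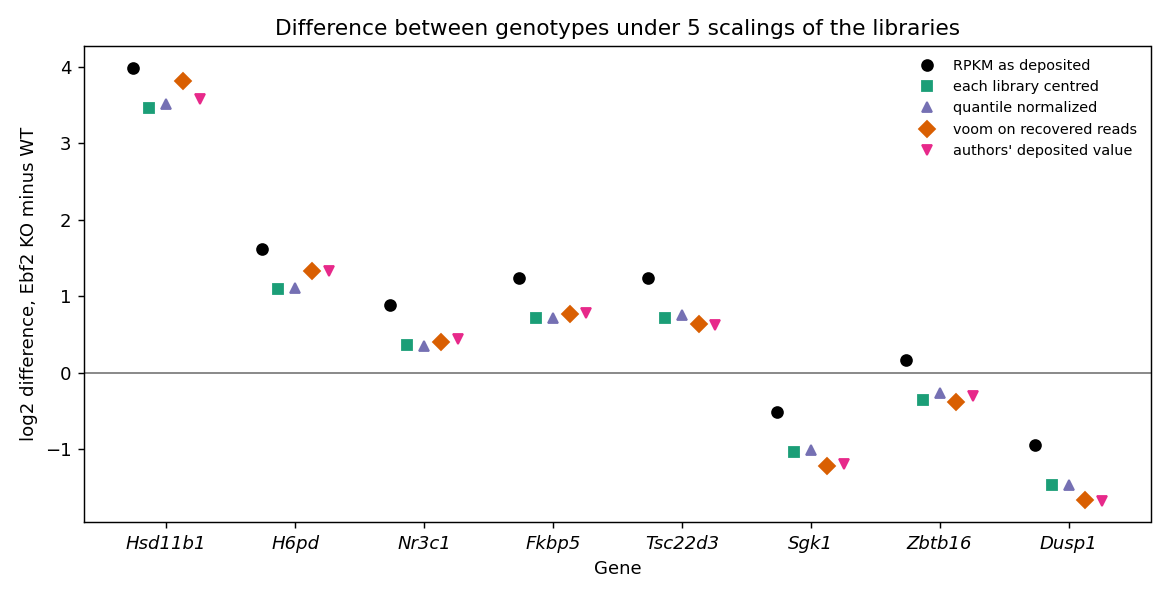
Log2 difference (Ebf2 KO minus WT) of each member on log2(RPKM + 1) as deposited, after centring, after quantile normalization, by limma-voom on recovered reads, and in the authors' deposited table; the last pair has no added 1. Hsd11b1, H6pd, Nr3c1, Fkbp5 and Tsc22d3 lie above 0 and Sgk1 and Dusp1 below 0 in all 5, whereas Zbtb16 goes from 0.17 on RPKM to -0.36 after centring.

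Ratios within a library compare the targets with each other without any scaling between libraries. Fkbp5 relative to Sgk1 was 0.985 and 0.711 in the Ebf2 KO libraries and 0.243 and 0.185 in the WT libraries, so the mean ratio was 3.96 times higher in Ebf2 KO. Tsc22d3 relative to Dusp1 was 2.40 and 2.91 in the Ebf2 KO libraries and 0.837 and 0.339 in the WT libraries, 4.51 times higher in Ebf2 KO. Each pair set a gene that was higher in both Ebf2 KO libraries over a gene that was lower in both. The lack of overlap follows from that choice and is no separate result. Per unit of receptor RNA, Fkbp5 and Tsc22d3 overlapped between the genotypes. The Fkbp5 to Nr3c1 ratio was 2.32 and 1.04 in the Ebf2 KO libraries and 1.82 and 0.805 in the WT libraries. The Tsc22d3 to Nr3c1 ratio was 4.79 and 3.73 in the Ebf2 KO libraries and 5.06 and 2.55 in the WT libraries. Sgk1 relative to Nr3c1 was 2.35 and 1.47 in the Ebf2 KO libraries and 7.49 and 4.35 in the WT libraries, and Dusp1 relative to Nr3c1 was 1.99 and 1.28 in the Ebf2 KO libraries and 6.04 and 7.53 in the WT libraries. These last ratios were 3.10 and 4.14 times lower in Ebf2 KO. Their lack of overlap follows from the directions, since Nr3c1 was higher in both Ebf2 KO libraries and Sgk1 and Dusp1 were lower. Zbtb16 relative to Nr3c1 was 0.317 and 0.144 in the Ebf2 KO libraries and 0.426 and 0.319 in the WT libraries, 1.62 times lower in Ebf2 KO, with Ebf2 KO replicate 1 only just below WT replicate 2.

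The rest of the pathway was read from 6 lists with 92 genes, of which 67 were measured. Limma called 16 of the 67 higher and 3 lower in Ebf2 KO when fitted to RPKM, where 24.4% and 3.54% of all genes were called. After centring it called 7 higher and 8 lower, against 8.42% and 10.3% of all genes. The median log2 difference of the 67 was 0.51 beside 0.45 over all genes. Without Ebf2 KO replicate 2, 7 were higher and 2 lower on RPKM, and without WT replicate 2, 25 were higher and 5 lower. By these counts the wider pathway lay near the background.

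Of 16 listed genes of steroid and cofactor supply 7 were measured, and Star, Hsd3b1, Cyp21a1 and Cyp11b1 were not. Of the 7, 4 rose and the other 3 did not pass the threshold, where 24.4% of all genes were called higher. After centring 1 rose, where 8.42% of all genes did. Without Ebf2 KO replicate 2, 2 of these calls were left. Hsd11b2, which encodes the opposing enzyme that inactivates corticosterone, was at 3.24 and 1.37 RPKM in the Ebf2 KO libraries and at 0.401 and 0.184 RPKM in the WT libraries (log2 difference 1.30, SE 0.30, limma adjusted p = 0.0202). Its mean RPKM was 7.88 times higher in Ebf2 KO, or 5.03 times relative to the median gene. The Hsd11b1 level exceeded the Hsd11b2 level in every library, 13.4 and 60.6 times in Ebf2 KO and 11.6 and 8.74 times in WT. Cyp11a1, which makes pregnenolone from cholesterol, was at 3.89 and 5.74 RPKM in the Ebf2 KO libraries and at 0.333 and 1.41 RPKM in the WT libraries (log2 difference 1.68, SE 0.34, limma adjusted p = 0.0151). The WT libraries differed by 4.25 times, and the log2 difference was 1.25 without WT replicate 1 and 2.11 without WT replicate 2. Exons of Cyp11a1 overlap those of Gm17322 on the same strand. Srd5a3, of the steroid 5-alpha-reductase family, rose 2.56 times (limma adjusted p = 0.0211). G6pdx rose 2.25 times (limma adjusted p = 0.0108), and its exons overlap those of Ikbkg on the other strand. After centring only Cyp11a1 passed (limma adjusted p = 0.00579), while Hsd11b2 stood at 0.109 and Srd5a3 at 0.0525. In the authors' deposited table Hsd11b2 passed, with a log2 fold change of 2.31 (edgeR FDR 0.00457). By limma-voom it did not (adjusted p = 0.0612). Cyp11a1 did not pass on RPKM without Ebf2 KO replicate 2 (0.0533).

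Of 13 chaperones and cochaperones that fold and hold the receptor, 2 rose on RPKM and the other 11 did not pass. Over all genes 24.4% were called higher. St13, the HSP70-interacting protein HIP, rose 2.05 times (limma adjusted p = 0.0114), and Dnaja1, an HSP40 family member, rose 1.83 times (0.0342). Neither passed after centring (0.269 and 0.446) or without Ebf2 KO replicate 2 (0.0578 and 0.177), and Dnaja1 also did not pass without Ebf2 KO replicate 1 (0.127) or without WT replicate 1 (0.0736). Without WT replicate 2 more genes of the list rose, as did more of all genes. By the authors' deposited table, 0 of the 13 were higher and 2 were lower, against 10.9% and 10.5% of all genes. Limma after centring and limma-voom called 0 in either direction. Exons of Dnaja1 overlap those of Smu1 on the other strand. The list's median log2 difference of 0.31 lay below the 0.45 of all genes. Fkbp4 encodes FKBP52, the cochaperone that FKBP51 displaces from the receptor complex. The Fkbp5 to Fkbp4 ratio was 0.407 and 0.341 in the Ebf2 KO libraries and 0.286 and 0.172 in the WT libraries, 1.63 times higher in Ebf2 KO with no overlap. Of 10 receptor coregulators, Kat2b, a histone acetyltransferase, rose 2.85 times (limma adjusted p = 0.0161, and 0.0428 after centring). It did not pass without Ebf2 KO replicate 2. More coregulators rose without WT replicate 2, as did more of all genes. The other 9 did not pass on RPKM, where 24.4% of all genes were called higher.

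Of 28 measured genes known to be induced by glucocorticoids elsewhere, 8 rose and 3 fell on the RPKM scale; after centring 4 rose and 6 fell. Of all genes, 24.4% and 3.54% were called on RPKM and 8.42% and 10.3% after centring. Their median log2 difference was 0.54 beside 0.45 over all genes. Pdk4, the kinase that shuts off pyruvate dehydrogenase, was at 10.98 and 18.6 RPKM in the Ebf2 KO libraries and at 199.4 and 211.8 RPKM in the WT libraries, with a log2 difference of -3.75 (SE 0.26; adjusted p = 0.000714 by limma). Mt2, a metallothionein that binds zinc and copper, was at 84.98 and 39.6 RPKM in the Ebf2 KO libraries and at 396.9 and 254.3 RPKM in the WT libraries (log2 difference -2.43, SE 0.38, limma adjusted p = 0.00693). Anxa1, annexin A1 of the anti-inflammatory response, was at 83.2 and 119.4 RPKM in the Ebf2 KO libraries and at 22.6 and 25.7 RPKM in the WT libraries (log2 difference 2.01, SE 0.23, limma adjusted p = 0.00298). Sesn1, a sestrin that restrains mTORC1, was at 6.52 and 8.55 RPKM in the Ebf2 KO libraries and at 1.18 and 1.97 RPKM in the WT libraries (log2 difference 1.73, SE 0.28, limma adjusted p = 0.00761).

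The 4 genes of this list just described kept their calls after centring. In the plot of the list, Mt1 was the other gene called lower on both scales, and Cdkn1c and Klf15 the others called higher on both, named here after their values were seen. Leaving out Ebf2 KO replicate 2 gave 5 higher and 2 lower on RPKM, and leaving out WT replicate 2 gave 10 and 5.

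**Figure D3:**
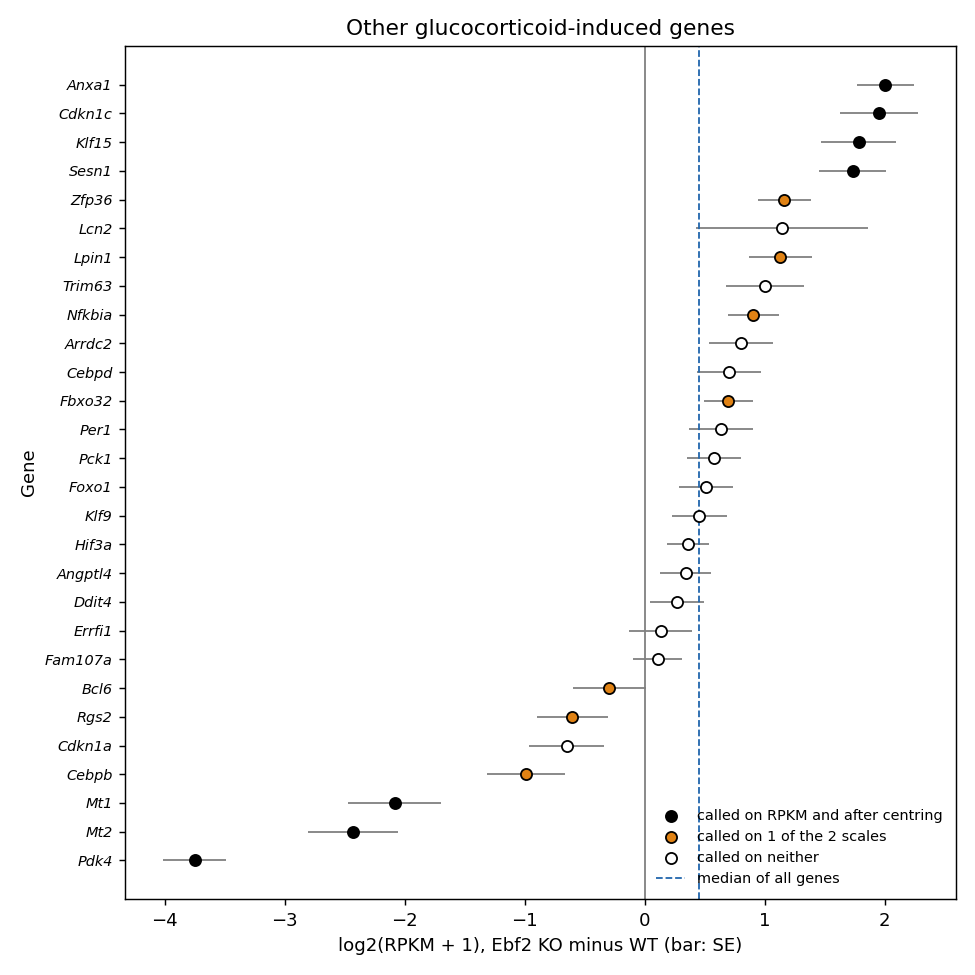
Log2(RPKM + 1) difference (Ebf2 KO minus WT, bar: SE) of 28 other glucocorticoid-induced genes, filled by whether limma called them on RPKM and after centring, with a dashed line at the 0.45 of the median gene. Pdk4, Mt2 and Mt1 lie at the low end and Anxa1, Cdkn1c, Klf15 and Sesn1 at the high end.

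Of 5 measured genes that glucocorticoids repress, Ccl7, a chemokine for monocytes, rose to 3.06 and 3.88 RPKM in the Ebf2 KO libraries, against 0.583 and 1.10 RPKM in the WT libraries (log2 difference 1.29, SE 0.26, limma adjusted p = 0.0144). The other 4 did not pass, where 24.4% of all genes were called higher. Ccl7 did not pass without Ebf2 KO replicate 2. More of the 5 rose without WT replicate 2 or without Ebf2 KO replicate 1. Of all genes, more rose without WT replicate 2 and fewer without Ebf2 KO replicate 1. Of 4 measured targets of the mineralocorticoid receptor 0 were called by limma, with 0 higher and 0 lower at an unadjusted p under 0.05. After centring 1 was called lower, as by limma-voom and in the authors' deposited table. Ndrg2 was at 70.5 and 65.5 RPKM in the Ebf2 KO libraries and at 69.5 and 87.3 RPKM in the WT libraries (limma adjusted p = 0.477).

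The paralogues of the members give a second reading of each family. Of 12 measured, 4 rose and 2 fell, against 24.4% and 3.54% of all genes. After centring 0 rose and 4 fell, against 8.42% and 10.3% of all genes. Sgk2, a kinase related to Sgk1, was at 0.0215 RPKM in Ebf2 KO replicate 1 and listed at 0 in Ebf2 KO replicate 2. In the WT libraries it was at 1.09 and 3.48 RPKM (log2 difference -1.60, SE 0.33, limma adjusted p = 0.0160). The Ebf2 KO values rest on 12 and 0 reads, so the added 1 RPKM limits this difference. With a pseudocount of 0.1 it was -4.22, and the authors' deposited table gives -8.17. Dusp8, another dual specificity phosphatase, was at 0.759 and 0.724 RPKM in the Ebf2 KO libraries and at 2.83 and 2.08 RPKM in the WT libraries (log2 difference -0.98, SE 0.23, limma adjusted p = 0.0217). Among the other paralogues of Dusp1, Dusp2 was at 1.41 and 1.12 RPKM in the Ebf2 KO libraries and 0.563 and 0.746 RPKM in the WT libraries (limma adjusted p = 0.112), and Dusp4 overlapped between the genotypes. Dusp10 was lower in both Ebf2 KO libraries, at 7.17 and 4.82 RPKM against 17.4 and 8.51 RPKM in the WT libraries. Dusp6 was lower too, at 5.36 and 5.85 RPKM against 6.28 and 8.80 RPKM. Neither passed on RPKM (limma adjusted p = 0.0758 and 0.289). With Sgk2 and Dusp8 they were the 4 that fell after centring (0.0251 and 0.0147). Dusp2, Dusp4, Dusp6 and Dusp10 are named after their values were seen. The call of Dusp8 was lost without Ebf2 KO replicate 1 (0.0785) and without Ebf2 KO replicate 2 (0.148), and without Ebf2 KO replicate 2 only 2 paralogues rose. The 4 that rose were G6pdx and Hsd11b2, described above, and Tsc22d4 and Tsc22d1, relatives of Tsc22d3. Tsc22d4 rose 2.35 times (limma adjusted p = 0.0229) and Tsc22d1 1.99 times (0.0494), beside 2.46 times for Tsc22d3. Neither relative passed after centring (0.0850 and 0.252), and Tsc22d2 did not pass on RPKM (0.0917). These relatives are named after their values were seen.

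Dusp1 and Sgk1 are also early response genes that change within minutes of a stimulus, and Fkbp5 and Tsc22d3 are known to follow the daily rhythm of corticosterone. Of 10 immediate early genes measured, Atf3 fell, at 2.01 and 1.85 RPKM in the Ebf2 KO libraries and 10.4 and 10.3 RPKM in the WT libraries (log2 difference -1.96, SE 0.24, limma adjusted p = 0.00322). The other 9 did not pass, where 3.54% of all genes were called lower. With Atf3 included, 3 of the 10 fell after centring and 3 fell on RPKM without WT replicate 1, and 1 rose without WT replicate 2. The others that fell after centring were Nr4a1 and Ier3 (limma adjusted p = 0.0281 and 0.0402), which overlapped between the genotypes on RPKM. Fos, the best known of them, was at 1.22 and 1.27 RPKM in the Ebf2 KO libraries and at 0.498 and 0.774 RPKM in the WT libraries (limma adjusted p = 0.107 on RPKM). Nr4a1, Ier3 and Fos are named after their values were seen. Of 12 clock genes, 6 rose on RPKM, but 3 when Ebf2 KO replicate 2 was left out. After centring 5 rose and 2 fell. Over all genes the shares were 24.4% higher on RPKM, and 8.42% higher and 10.3% lower after centring. The clock repressor Nr1d1 was at 43.2 and 26.8 RPKM in the Ebf2 KO libraries and at 5.77 and 9.33 RPKM in the WT libraries (log2 difference 2.07, SE 0.31, limma adjusted p = 0.00590). Its exons overlap those of Thra on the other strand. Cry2 rose 2.81 times (0.00761), Dbp 3.50 times (0.0189) and Tef 2.62 times (0.0174), all by limma on RPKM. Exons of Dbp overlap those of Sphk2 on the other strand. The hour at which tissue was taken is not in the labels, and the part of early response and clock in the values of the members was not tested.

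Markers of the cells in the tissue moved with the genotype as well. Beside their counts, limma called 24.4% of all genes higher and 3.54% lower on RPKM. After centring it called 8.42% higher and 10.3% lower. All 8 brown adipocyte markers were measured, and their summed level was 110 to 141 RPKM in the Ebf2 KO libraries and 8118 to 9346 RPKM in the WT libraries, with all 8 lower by limma. All 8 adipocyte markers were measured, with sums of 32819 to 39134 RPKM in Ebf2 KO and 14322 to 19902 RPKM in WT. Fabp4 and Cfd made up most of these sums, with 25227 and 10139 RPKM in Ebf2 KO replicate 1. By limma on RPKM 5 of the 8 were higher, and after centring 2 were higher and 1 lower. Pparg, the master regulator of fat cells, averaged 33.2 RPKM in Ebf2 KO and 55.3 RPKM in WT and was lower in both Ebf2 KO libraries (limma adjusted p = 0.0638 on RPKM and 0.0146 after centring), and Plin1 overlapped between the genotypes. These 4 genes are named after their values were seen. For the 8 fibroblast and adipocyte precursor markers the sums were 1256 and 2312 RPKM in the Ebf2 KO libraries and 235 and 537 RPKM in the WT libraries, with 8 of 8 higher by limma on RPKM and 6 of 8 after centring. Hsd11b1 is known to be made in fat cells and in stromal cells. Between the Ebf2 KO libraries, Hsd11b1 and the stromal sum were both higher in replicate 2, while between the WT libraries Hsd11b1 was higher in replicate 1 and the stromal sum in replicate 2. Relative to Dcn, a stromal marker, Hsd11b1 was 0.268 and 0.296 in the Ebf2 KO libraries and 0.170 and 0.0269 in the WT libraries. Relative to Adipoq, the adiponectin gene of fat cells, it was 0.0192 and 0.0348 in the Ebf2 KO libraries and 0.00653 and 0.00285 in the WT libraries. Both ratios were higher in each Ebf2 KO library than in each WT library, but each rests on 1 marker of its list. They do not stand for the other markers. Lep, also of the adipocyte list, was itself 17.7 times higher in Ebf2 KO, beside 20.2 times for Hsd11b1.

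The sums of 9 skeletal muscle markers were 9551 and 10423 RPKM in the Ebf2 KO libraries and 1016 and 2606 RPKM in the WT libraries. Those of 7 of 8 macrophage markers were 305 and 271 RPKM in Ebf2 KO and 54.4 and 113 RPKM in WT. Those of 5 of 7 neutrophil markers were 276 and 66.5 RPKM in Ebf2 KO and 49.1 and 18.0 RPKM in WT. The 7 endothelial markers summed to 98.4 and 109 RPKM in Ebf2 KO and 68.0 and 110 RPKM in WT. Of 8 lymphocyte markers 1, Cd79a, was measured, at 0.491 and 0.662 RPKM in Ebf2 KO and 0.196 and 0.747 RPKM in WT. No marker measured was at 0 in any library. The part of these cells in the member values was not tested.

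**Figure D4:**
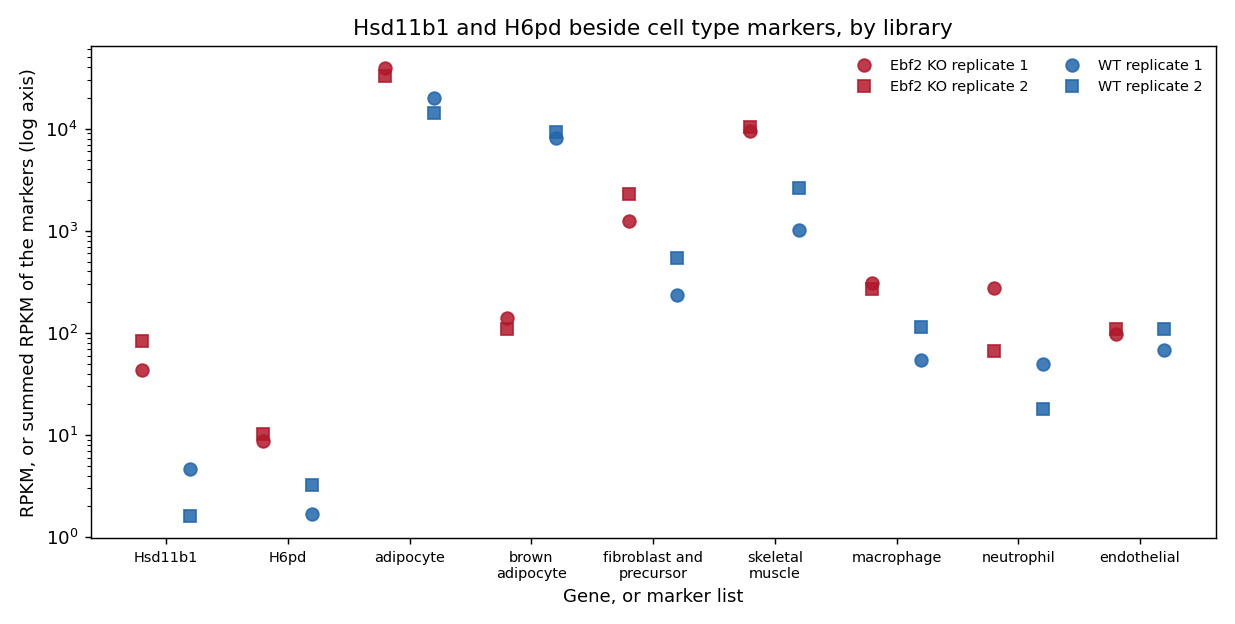
RPKM of Hsd11b1 and H6pd and summed RPKM of the markers of 7 cell types on a log axis, in the Ebf2 KO (red, left) and WT (blue, right) libraries. Brown adipocyte markers are at 110 to 141 RPKM in Ebf2 KO and 8118 to 9346 RPKM in WT, and stromal, muscle and macrophage markers are higher in both Ebf2 KO libraries.

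The genes nearest to Hsd11b1 in their course over the 4 libraries were found by the Euclidean distance of log2(RPKM + 1) after subtraction of each gene's mean. Genes averaging under 1 RPKM were passed over. They were Retn (resistin, distance 0.762), Apoc4 (0.813), Scd1 (0.886), Lep (leptin, 1.09) and Ifi27l2a (1.24). The measure rests on 4 libraries, and the difference between the genotypes is part of it. Retn and Scd1, and Apoc4 too, shared with Hsd11b1 the higher value in WT replicate 1, at 118.8 and 63.9 RPKM in WT replicates 1 and 2 for Retn and at 22.8 and 12.2 RPKM for Scd1.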

How the data were processed

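Polyadenylated RNA of brown adipose tissue was sequenced as 4 libraries, 2 of Ebf2 KO and 2 of WT mice. Reads were aligned with STAR and compared with edgeR on mm9, per the submitters' processing notes. For their versions, the counter, annotation and strand setting, nothing was stated in the labels. The deposited table gives RPKM per library and per genotype, and the authors' own p-value, FDR and log2 fold change for KO over WT, with a mean log2 CPM, per the file headers. Every gene listed reached 0.502 RPKM or more in some library. Whole reads were recovered from the RPKM values with microRNA hairpins of known length, for 12165 of 12165 genes within a relative tolerance of 1e-06.

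All 4 libraries entered a fit of log2(RPKM + 1) on genotype in limma 3.58.1 (R 4.3.3), with its variance trend on. The Benjamini-Hochberg adjustment ran over 12165 genes and calls were made at 0.05. On simulated data with a coefficient of variation of 20%, the fit for Ebf2 KO against WT over 12165 genes found 50 of 50 genes made higher by 2 on the log2 scale, 50 of 50 at -2, 21 of 50 at 1 and 26 of 50 at -1. It called 16 of 11965 unchanged genes. Unlike the real libraries, the simulated ones had no shift between the genotypes over all genes and the same spread for every gene. These counts therefore do not give the error rate of the fit to the real data.

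The members and lists were chosen with earlier results of these data known. Named genes were Ebf2, all members, the called genes of each list in order of p, up to 4 (if none was called, the 2 of highest mean), and the 5 genes nearest to Hsd11b1. A gene that this rule also takes is not reported here. Promoters are from RefSeq (GRCm38.p6) and exon overlaps from GENCODE M21. Alternatives were another pseudocount, centring, quantile normalization, a minimum mean of 1 RPKM, no variance trend, a replicate block, leaving out each library and the authors' values. Limma-voom on recovered reads, and centring with a library left out, were added after seeing the data.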

Additional observations from a re-analysis of the deposited data

How the results depend on the processing

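The counts moved with the scaling of the libraries. Limma on RPKM gave 2971 higher and 431 lower genes in all; the same counts were 1024 and 1253 with centring, 1048 and 1010 with quantile normalization, 966 and 1022 by limma-voom on recovered reads, and 1325 and 1277 in the authors' deposited table. For the 67 pathway genes it gave 16 and 3 on RPKM, 7 and 8 with centring, 6 and 8 with quantile normalization, 7 and 8 by limma-voom, and 9 and 11 in the authors' deposited table. The replicate block gave 6325 and 746 over all genes and 38 and 7 in the pathway. The libraries share only a number, although same-numbered libraries deviated together over genes (r = 0.348), so the block is not used elsewhere. Leaving out 1 library gave 810 to 4477 genes higher and 166 to 561 lower, and 7 to 25 pathway genes higher and 2 to 5 lower. After centring, the pathway counts were 2 and 2 without WT replicate 1 and 5 and 4 without Ebf2 KO replicate 2. Another pseudocount, a minimum mean of 1 RPKM and no variance trend moved no count by over 1.5 times.

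Of the members, Zbtb16 turned from 0.17 to -0.36 after centring, -0.27 with quantile normalization, -0.39 by limma-voom and -0.31 in the authors' deposited table. The other 7 kept their sign under those 4, another pseudocount, a minimum mean of 1 RPKM, the replicate block and each library left out. Among the named genes outside the members, 37 comparisons with an alternative lost the call. Every member had at least 410 reads in every library, and the 2 libraries per genotype set the precision.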
